A study of Mus musculus with 12 samples.

Results

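Peritoneal macrophages of CD36-deficient mice were compared with wild-type macrophages after both had been given oxidized low-density lipoprotein (oxLDL). The comparison used 6 of the 12 RNA-seq libraries of the study, 3 of CD36-deficient cells (CD36KO-oxLDL) and 3 of wild-type cells (WT-oxLDL), placed in their groups by their titles. All cells came from C57BL/6 mice, were cultured in RPMI1640 with 10% FBS and, in these 6 libraries, received 20 µg/ml oxLDL for 8 h before lysis. The other 6 libraries, 3 of each genotype, were titled control (WT-control and CD36KO-control) and serve here as the genotype difference without oxLDL. Of 43346 genes in the count table, 16281 had enough counts to be tested, and all of them were tested. Nothing in the labels tells whether the 3 libraries of a group are separate animals or cultures. The p-values therefore measure only the spread among libraries within groups, and that spread may be technical. It was estimated from all 12 libraries, the control libraries included. The method of purifying the cells, the deleted part of Cd36 and the origin of the wild-type mice are not in the labels either.

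CD36 is a membrane scavenger receptor that binds oxLDL and long-chain fatty acids. In macrophages its ligation recruits Src family kinases such as Lyn and cooperates with Toll-like receptors in inflammatory signalling, and the lipoprotein it carries inward supplies fatty acids and oxysterols, the ligands of PPAR and LXR nuclear receptors. Macrophages loaded with oxLDL in this way become the foam cells of atherosclerotic plaque.

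Total counts in the 6 oxLDL libraries ranged from 35940504 to 65135955. WT-oxLDL replicate 1 stood apart from the other libraries. Its log2 levels correlated with those of the other libraries of its group at r = 0.952 and 0.953, against 0.988 to 0.995 within the remaining oxLDL libraries. Long genes exceeded short genes by 1.16 log2 units in it, against 2.22 and 2.26 in the other WT-oxLDL libraries and 1.89 to 2.30 in CD36KO-oxLDL. Ribosomal protein genes summed to 43687 CPM, the count relative to the library size as scaled by TMM factors, in that library and to 19396 and 20567 CPM in the other WT-oxLDL libraries. Counts of list members called under oxLDL are therefore also given without it. CD36KO-oxLDL replicate 3 had the lowest value of the long-minus-short measure in its group, 1.89, and without it 3659 genes were called.

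Cd36 itself (ENSMUSG00000002944, mm10 chr5:17781690-17888801) checked the genotype labels. Its level was 1899, 3578 and 3825 CPM in WT-oxLDL and 203, 204 and 190.3 CPM in CD36KO-oxLDL. The mean in the CD36-deficient libraries was 6.42% of the wild-type mean, a log2 difference of -3.96 ± 0.23 (SE), adjusted p = 4.02e-06, by edgeR's quasi-likelihood test with Benjamini-Hochberg adjustment. All log2 differences below are CD36-deficient minus wild-type values, and all adjusted p-values come from this test over all tested genes. Without WT-oxLDL replicate 1, which had the lowest Cd36 level of its group, the difference was -4.23. The counts left in the CD36-deficient cells cannot be assigned to a part of the gene from these files.

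Under oxLDL the genotypes differed at many genes. At an adjusted p under 0.05, 3577 genes were called, which is 22.0% of those tested. Of these, 1920 (11.8% of tested genes) were higher and 1657 (10.2%) were lower in the CD36-deficient libraries. The median log2 difference was 1.29 among genes called higher and -0.76 among genes called lower, beside -0.03 over all tested genes. A log2 difference beyond 1 in size was found for 1362 of the genes called higher and 509 of those called lower. Without WT-oxLDL replicate 1, 6203 of 16636 tested genes were called (37.3%), 2689 higher (16.2%) and 3514 lower (21.1%). Counts of list members below stand beside 22.0% of all tested genes called with all libraries and 37.3% without replicate 1. Of all tested genes, 17.3% were higher and 15.3% lower without overlap of the CD36KO-oxLDL and WT-oxLDL libraries. Statements below that groups did not overlap stand beside these shares. Genes named for the largest differences or smallest p had to have groups without overlap. Of the 3577 genes, 3468 (97.0%) were called in the same direction without that library and 0 turned direction, and 2684 were called only without it. In the authors' deposited table of the same comparison, 1517 of 12793 genes passed a false discovery rate of 0.05, and 1489 of those were called here in the same direction. The split between directions depended on scaling: upper-quartile factors shifted the median of all genes from -0.03 to 0.09, and 70.7% of calls were then higher (2424 higher, 1007 lower), against 53.7% with TMM factors. With the gene-length trend removed, 40.7% were higher (2078 higher, 3029 lower). A fit to the 6 oxLDL libraries alone, with fewer samples to estimate the spread, called 905 higher and 354 lower (71.9% higher). Leaving out CD36KO-oxLDL replicate 1 or replicate 2 left 2131 and 2350 calls, so counts of list members below are given also for these where they moved by over 1.5 times.

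In control medium 1863 genes differed between the genotypes (11.4% of tested genes), 1452 higher (8.92%) and 411 lower (2.52%) in CD36-deficient cells. The 2 contrasts share no library. Of the genes called higher under oxLDL, 1041 (54.2%) were also called higher in control medium, and of those called lower, 284 (17.1%) were also called lower. As shares of the control calls these are 71.7% and 69.1%. The median control-medium difference was 1.0 for the genes called higher under oxLDL and -0.26 for those called lower. A test of the change in the genotype difference between media, the interaction, called 113 genes (0.694%), of which 101 were also called under oxLDL. Both counts rose when WT-oxLDL replicate 1, which adds to the common estimate of the spread, was left out, to 4864 in control medium and 1154 in the interaction.

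**Figure D1:**
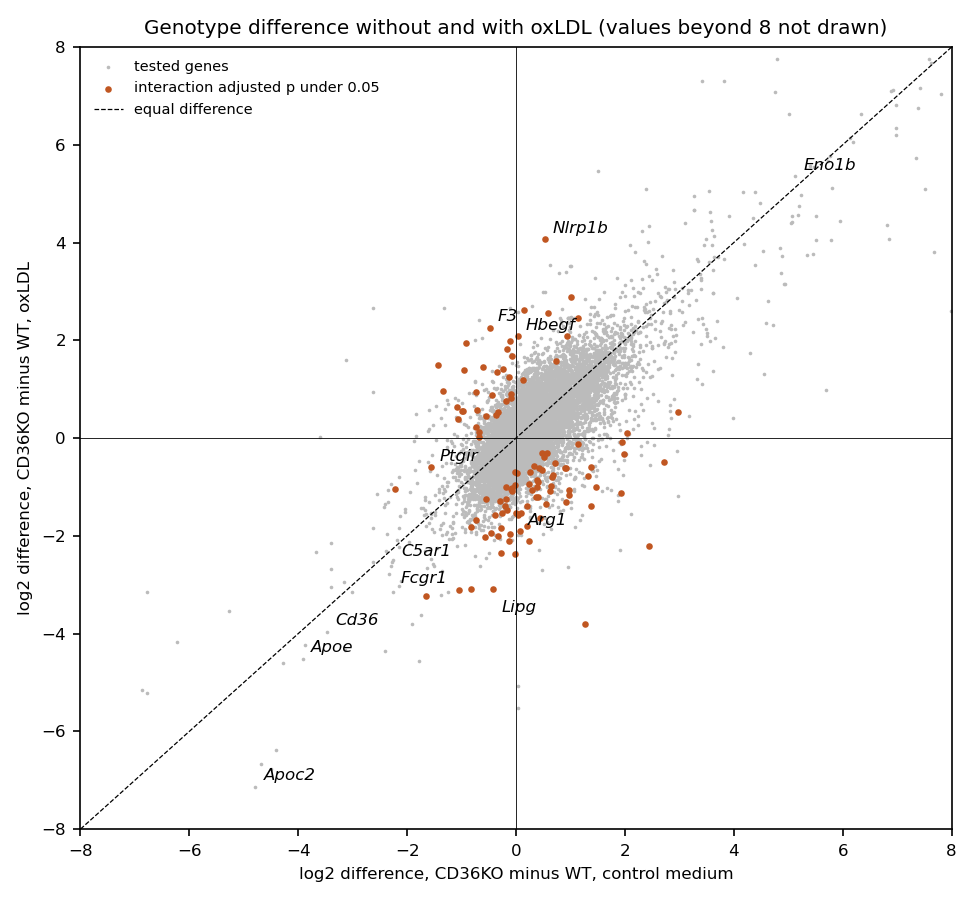
Each point is a tested gene, with the log2 difference between CD36-deficient and wild-type libraries in control medium on the x axis and under oxLDL on the y axis; orange points are the 113 genes with an interaction adjusted p under 0.05. Cd36, Apoe, C5ar1 and Eno1b lie near the line of equal difference, while Nlrp1b, F3 and Hbegf lie far above it and Arg1, Fcgr1 and Lipg far below; values beyond 8, such as those of Ifi44l and Ptgds, are not drawn.

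The genes with the largest differences on the higher side were mostly immunoglobulin genes. Among the 12 largest differences on the higher side, 10 were immunoglobulin genes, described with the B cell markers below. Ifi44l, an interferon-inducible gene, had 0 counts in each WT-oxLDL library and 877, 830 and 1336 counts in CD36KO-oxLDL. Against a floor of 3 counts over the wild-type group it was at least 992-fold higher. Eno1b, an enolase gene, was at 1.81, 1.26 and 1.44 CPM in WT-oxLDL and 54.9, 56.2 and 72.4 CPM in CD36KO-oxLDL. The log2 difference was 5.36 ± 0.19 (SE), adjusted p = 1.19e-07, and 5.12 in control medium. Eno1b closely resembles Eno1, so reads may be shared between these genes. Plekha7, an adherens junction protein, was at 0.168, 0.160 and 0.166 CPM in WT-oxLDL and 5.4, 4.43 and 4.12 CPM in CD36KO-oxLDL, a log2 difference of 4.80 ± 0.26 (SE), adjusted p = 1.83e-06. Cadm1, a cell adhesion molecule, was at 10.8, 9.10 and 8.79 CPM in WT-oxLDL and 74.8, 79.4 and 83.9 CPM in CD36KO-oxLDL, 8.30-fold higher in the CD36-deficient mean (adjusted p = 2.15e-07). All 3 genes had a similar difference in control medium (5.12, 4.48 and 2.92). Their groups did not overlap under oxLDL, but the rule that named these genes required this.

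At the other end stood apolipoprotein genes. Apoe, the apolipoprotein that carries cholesterol out of macrophages, was at 8513, 4107 and 3989 CPM in WT-oxLDL and 215, 219 and 294 CPM in CD36KO-oxLDL. WT-oxLDL replicate 1 lay well above the other wild-type libraries, and all 3 lay far above the CD36-deficient ones. The log2 difference was -4.51 ± 0.29 (SE), adjusted p = 7.83e-06, -4.08 without that library and -3.91 in control medium. Apoc2, a cofactor of lipoprotein lipase encoded beside Apoe, was at 14.8, 6.37 and 6.66 CPM in WT-oxLDL and 0.0394, 0.0810 and 0.0749 CPM in CD36KO-oxLDL, a log2 difference of -7.13 ± 0.48 (SE), adjusted p = 9.32e-06. Ptgds, a prostaglandin D synthase, had 104, 84 and 54 counts in WT-oxLDL and 0 in each CD36KO-oxLDL library, at least 92.0-fold lower against the same floor. The remaining genes with the largest negative differences were Cd36, Pydc3 (-3.61), Dppa3 (-3.23), Fcgr1 (-3.10), Lipg (-3.09), C5ar2 (-3.06), Cd72 (-3.04), Tnfaip8l3 (-2.95) and Pcp4l1 (-2.78). Lipg encodes endothelial lipase and Cd72 an inhibitory co-receptor of B cells. Tnip3 and Slc13a3 had p-values among the 6 smallest on the lower side. Tnip3, an inhibitor of NF-kB signalling, was at 178, 166 and 181 CPM in WT-oxLDL and 37.7, 40.7 and 41.4 CPM in CD36KO-oxLDL, and its log2 difference was -2.13 ± 0.11 (SE), adjusted p = 1.03e-06. Slc13a3, a dicarboxylate transporter, was at 19.6, 20.5 and 16.1 CPM in WT-oxLDL and 3.88, 3.65 and 3.39 CPM in CD36KO-oxLDL, a log2 difference of -2.36 ± 0.15 (SE), adjusted p = 7.83e-06. The rule that named both genes required groups without overlap. Slc13a3 was not called in control medium, where it differed by -0.28 (adjusted p = 0.5).

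**Figure D2:**
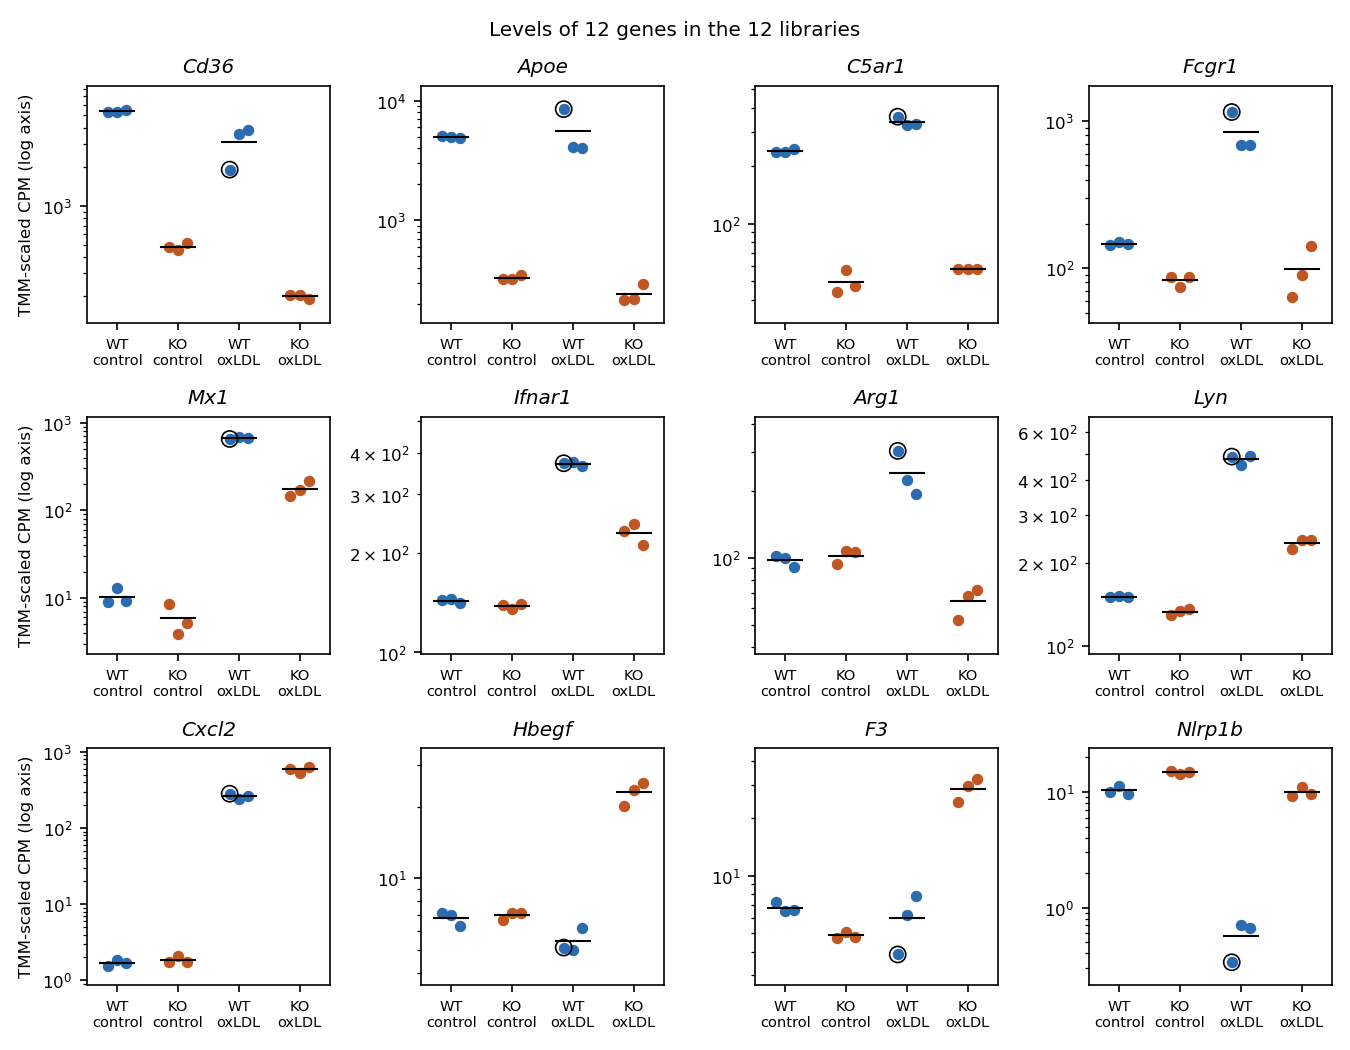
Levels of 12 genes in the 12 libraries as TMM-scaled CPM on log axes; blue points are wild-type and orange points CD36-deficient libraries, bars are group means, and the circled point is WT-oxLDL replicate 1. Under oxLDL the 3 CD36-deficient libraries lie below the 3 wild-type libraries for Cd36, Apoe, C5ar1, Fcgr1, Mx1, Ifnar1, Arg1 and Lyn and above them for Cxcl2, Hbegf, F3 and Nlrp1b.

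Type I interferon induces a large set of antiviral genes through the factor ISGF3, which binds the interferon-stimulated response element in their promoters. In the promoters (RefSeq, GRCm38.p6, 250 bases before to 50 after the gene's start) the core GAAANNGAA, on either strand, was present in 23 of 35 promoters of the interferon-stimulated list (65.7%), in which 30 of the 40 genes were matched. It was present in 8.56% of all 32851 promoters of the table. Promoters of 4 list members are shown because these genes differed between genotypes in opposite directions: Oas1a, Isg15 and Oas3 were lower and Ifi44l higher in CD36-deficient libraries. Capitals mark the matches, each sequence is written 5′ to 3′ on the gene's strand, and all 4 genes lie on the minus strand. The windows are chr5:120907476-120907775 for Oas1a, chr4:156200769-156201068 for Isg15, chr5:120777610-120777909 for Oas3 and chr3:151762842-151763141 for Ifi44l.
Oas1a: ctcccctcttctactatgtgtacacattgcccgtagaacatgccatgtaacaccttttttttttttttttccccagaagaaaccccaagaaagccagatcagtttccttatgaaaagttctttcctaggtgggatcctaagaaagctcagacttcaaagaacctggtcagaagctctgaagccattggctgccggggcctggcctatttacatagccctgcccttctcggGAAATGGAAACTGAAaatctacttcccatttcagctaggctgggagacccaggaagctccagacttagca
Isg15: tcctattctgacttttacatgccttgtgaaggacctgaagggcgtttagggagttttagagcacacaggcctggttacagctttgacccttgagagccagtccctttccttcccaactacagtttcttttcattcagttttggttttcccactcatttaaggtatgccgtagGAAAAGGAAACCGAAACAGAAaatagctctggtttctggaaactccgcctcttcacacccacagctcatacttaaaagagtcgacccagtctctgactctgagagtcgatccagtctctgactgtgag
Oas3: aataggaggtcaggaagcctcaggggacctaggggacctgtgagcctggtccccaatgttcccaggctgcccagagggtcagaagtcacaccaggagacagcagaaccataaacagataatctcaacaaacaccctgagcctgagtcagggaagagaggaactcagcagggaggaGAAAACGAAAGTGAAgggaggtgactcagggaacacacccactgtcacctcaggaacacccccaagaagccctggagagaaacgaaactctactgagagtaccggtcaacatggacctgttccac
Ifi44l: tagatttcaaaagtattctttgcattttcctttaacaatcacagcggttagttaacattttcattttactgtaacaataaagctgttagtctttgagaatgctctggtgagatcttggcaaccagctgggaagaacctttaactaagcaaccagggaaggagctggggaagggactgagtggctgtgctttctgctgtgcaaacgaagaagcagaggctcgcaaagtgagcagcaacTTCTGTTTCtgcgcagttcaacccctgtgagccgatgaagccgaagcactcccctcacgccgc
The first match of each lies upstream of the gene's start and nearer to it than to the far end of the window, and the Ifi44l promoter carries the motif in the reverse orientation. Of promoters of list genes called lower 7 of 15 held the core, and of the others 16 of 20. A match is a description of letters, and no match says only that these letters are not in the window.

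Many interferon-stimulated genes were lower in CD36-deficient cells under oxLDL. Of the 40 listed, all tested, 20 were called lower and 2 higher, with a median log2 difference of -0.72, beside -0.03 over all tested genes. Without WT-oxLDL replicate 1 the counts were 30 lower and 3 higher (median -0.75). Mx1, a dynamin-like antiviral GTPase, was at 652, 689 and 666 CPM in WT-oxLDL and 144, 173 and 213 CPM in CD36KO-oxLDL. Its log2 difference was -1.92 ± 0.26 (SE), adjusted p = 0.000617, and -1.95 without replicate 1. The wild-type libraries were close to each other and the highest CD36-deficient library was far below them. Mx2, its paralogue, was at 68.2, 60.6 and 57.0 CPM in WT-oxLDL and 23.9, 25.4 and 29.0 CPM in CD36KO-oxLDL, a log2 difference of -1.25 ± 0.16 (SE), adjusted p = 0.000437. Ifi204, a DNA-sensing protein of the p200 family, was at 824, 874 and 889.6 CPM in WT-oxLDL and 339, 399.5 and 507 CPM in CD36KO-oxLDL, a log2 difference of -1.05 ± 0.15 (SE), adjusted p = 0.000842. Members of that family resemble each other, so its counts are uncertain. Irf7, the transcription factor that amplifies interferon production, was at 2588, 1263 and 1316 CPM in WT-oxLDL and 358, 446 and 660.2 CPM in CD36KO-oxLDL. The difference was -1.82 ± 0.30 (SE), adjusted p = 0.00176, and WT-oxLDL replicate 1 was the highest by far; without it the difference was -1.42 (adjusted p = 0.000305). Isg15, a ubiquitin-like modifier, was at 1082, 777 and 865 CPM in WT-oxLDL and 279.8, 338 and 628 CPM in CD36KO-oxLDL, and CD36KO-oxLDL replicate 3 came nearest to the wild-type range. Its log2 difference was -1.13 ± 0.28 (SE), adjusted p = 0.014. The groups overlapped in none of these genes. Without CD36KO-oxLDL replicate 1 or replicate 2 the list had 12 and 14 members lower. Xaf1, Ifi44 and Ifi44l were the 3 members with positive differences. Ifi44, beside Ifi44l on chromosome 3, was at 54.2, 94.8 and 111 CPM in WT-oxLDL and 169.7, 221 and 278 CPM in CD36KO-oxLDL, a log2 difference of 1.36 ± 0.31 (SE), adjusted p = 0.00933, against 3.62 in control medium.

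**Figure D3:**
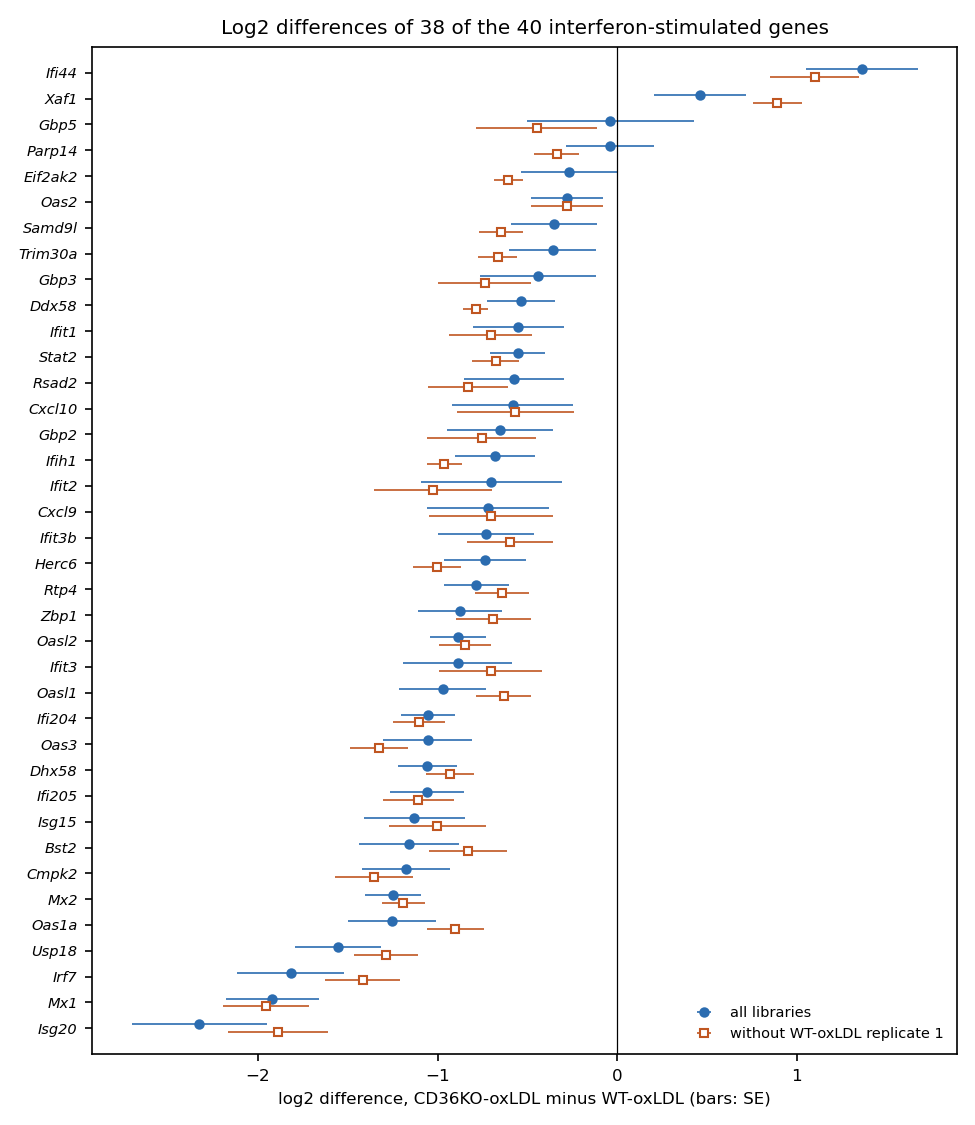
Log2 differences between CD36KO-oxLDL and WT-oxLDL, with standard errors, for 38 of the 40 members of the interferon-stimulated list (Ifi44l, given in the text, is among those not drawn), in all libraries (filled circles) and without WT-oxLDL replicate 1 (open squares). Most members lie below 0 with both sets of libraries, from -2.33 for Isg20 upwards, and Ifi44 lies at 1.36.

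In control medium 5 of the same genes were called higher and 3 lower, with a median of -0.20, beside 8.92% and 2.52% of all tested genes called in these directions there. Summed over the list, levels were 1433, 1469 and 1670.5 CPM in the WT-control and 1209.9, 1572 and 1768 CPM in the CD36KO-control libraries, against 20575, 21525 and 24008 CPM in WT-oxLDL and 10236, 13215 and 16049 CPM in CD36KO-oxLDL. No member passed the interaction test. The change of the difference with oxLDL was -1.10 ± 0.36 (SE), adjusted p = 0.242, for Mx1. All summed levels of lists are given from the lowest to the highest library of a group.

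Genes of interferon production and signalling were lower where they were called. Of 23 tested, 10 were lower and 0 higher, with a median of -0.48; without replicate 1, 17 were lower and 0 higher, and in the oxLDL libraries alone 1 was lower. Both chains of the type I receptor were among them. Ifnar1 was at 373, 376 and 366 CPM in WT-oxLDL and 233, 245 and 211 CPM in CD36KO-oxLDL, a log2 difference of -0.70 ± 0.09 (SE), adjusted p = 0.000634. Ifnar2 was at 399, 321 and 318 CPM in WT-oxLDL and 197, 210.4 and 235 CPM in CD36KO-oxLDL, a log2 difference of -0.69 ± 0.12 (SE), adjusted p = 0.00199. The interferon gamma receptor chains Ifngr1 (-0.57 ± 0.11 (SE), adjusted p = 0.00344) and Ifngr2 (-0.66 ± 0.13 (SE), adjusted p = 0.00369) were lower as well. In none of the 4 receptor genes did the groups overlap, beside 15.3% of all tested genes that were lower without overlap. Ifnb1 and Ifna4, which encode type I interferons themselves, had too few counts to be tested, and Ifna4 had 0 counts in all 6 oxLDL libraries.

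Antigen presentation genes were mostly lower. Of 18 genes of the MHC class I pathway, 13 were lower and 0 higher (median -0.76), and 12 were lower without replicate 1. H2-M3, a nonclassical class I molecule, was at 119, 72.2 and 76.4 CPM in WT-oxLDL and 25.8, 27.6 and 39.2 CPM in CD36KO-oxLDL, a log2 difference of -1.53 ± 0.21 (SE), adjusted p = 0.00072. H2-T23, another nonclassical molecule, was at 1482, 614 and 712 CPM in WT-oxLDL and 261, 313 and 448 CPM in CD36KO-oxLDL, a log2 difference of -1.46 ± 0.32 (SE), adjusted p = 0.00743. The wild-type libraries of both genes lay above all CD36-deficient ones, with replicate 1 the highest. Tapbp, the chaperone tapasin, differed by -0.73 and the proteasome activator subunit Psme1 by -1.10. Of 10 class II genes, 6 were lower and 1 higher; without replicate 1, 5 and 1. H2-Aa, a class II alpha chain, was at 459, 243 and 249.5 CPM in WT-oxLDL and 68.8, 95.7 and 157 CPM in CD36KO-oxLDL, a log2 difference of -1.57 ± 0.33 (SE), adjusted p = 0.00602. Cd74, the invariant chain, was at 1961, 834 and 857 CPM in WT-oxLDL and 236, 356 and 570.5 CPM in CD36KO-oxLDL; leaving out replicate 1, its highest library, took the log2 difference from -1.65 to -1.14 (adjusted p = 0.0058). The member called higher was H2-Ob, a class II molecule known mainly from B cells, at 0.671, 0.409 and 0.525 CPM in WT-oxLDL and 1.71, 1.78 and 2.27 CPM in CD36KO-oxLDL. Near-identical class I genes can share reads. Class I calls depended on single libraries: without CD36KO-oxLDL replicate 1 or replicate 2, 3 members of the class I and 3 of the class II list were called lower, and in the fit to oxLDL libraries alone 1 and 0; with upper-quartile factors 8 class I members were.

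Inflammatory mediators driven by NF-kB were more often higher than lower. Of 28 tested, 10 were higher and 3 lower, with a median of 0.26. Without replicate 1 the counts were 13 and 3. In control medium 5 were called higher and 0 lower, beside 8.92% and 2.52% of all tested genes there. The median of the list in control medium was also 0.26, and 1 member passed the interaction test. Neutrophil chemokines and cytokines of the interleukin-6 family had the smallest p-values of this list. Cxcl2 was at 283, 237 and 264 CPM in WT-oxLDL and 601, 536 and 641 CPM in CD36KO-oxLDL, a log2 difference of 1.18 ± 0.12 (SE), adjusted p = 0.000136. In control medium it differed by 0.13 (adjusted p = 0.687), and the change between media was 1.05 ± 0.19 (SE), adjusted p = 0.0265. Cxcl1 was at 59.1, 69.2 and 71.0 CPM in WT-oxLDL and 229, 178 and 229 CPM in CD36KO-oxLDL, 3.19-fold higher in the CD36-deficient mean (adjusted p = 0.000344), and differed by 1.47 in control medium. Il6 was at 9.57, 10.9 and 19.1 CPM in WT-oxLDL and 44.8, 43.7 and 59.6 CPM in CD36KO-oxLDL, a log2 difference of 1.90 ± 0.26 (SE), adjusted p = 0.000698. Lif, a cytokine of the same family, was at 1.71, 1.65 and 2.10 CPM in WT-oxLDL and 10.4, 11 and 9.76 CPM in CD36KO-oxLDL, a log2 difference of 2.51 ± 0.20 (SE), adjusted p = 2.1e-05. For each of these 4 genes the lowest CD36-deficient library lay above the highest wild-type library. Il1a (0.78), Cxcl3 (0.94), Ccl22 (0.90), Il23a (2.66), Csf2 (1.78) and Csf3 (0.93) were also called higher. The members called lower were the chemokine Ccl5, at 5056, 2182 and 2206 CPM in WT-oxLDL and 541, 687 and 1186 CPM in CD36KO-oxLDL (-1.97), the costimulatory receptor Cd40 (-1.41) and the anti-inflammatory cytokine Il10 (-1.07). Ccl5 and Cd40 are known to respond to interferon as well as to NF-kB. The best known inflammatory cytokines were not called. Tnf was at 1299, 738 and 835 CPM in WT-oxLDL and 943, 976 and 1059.7 CPM in CD36KO-oxLDL (adjusted p = 0.871), and Il1b was at 2477, 1491 and 2073 CPM in WT-oxLDL and 1841, 1997 and 2622 CPM in CD36KO-oxLDL (adjusted p = 0.894). In both the genotypes overlapped, and without replicate 1, the highest wild-type library, Tnf differed by 0.32 (adjusted p = 0.0335). Of the list, 7 were higher and 3 lower without CD36KO-oxLDL replicate 1.

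The promoters of Cxcl1 and Cxcl2, neighbours on chromosome 5, are shown because both chemokines were higher. GGGNNTTTC, part of the NF-kB motif, on either strand, was found in 6 of 19 promoters of the NF-kB list (31.6%) and in 4.36% of all promoters. Both promoters held 2 matches, in capitals, in the windows chr5:90890995-90891294 and chr5:90903649-90903948 (GRCm38.p6, plus strand).
Cxcl1: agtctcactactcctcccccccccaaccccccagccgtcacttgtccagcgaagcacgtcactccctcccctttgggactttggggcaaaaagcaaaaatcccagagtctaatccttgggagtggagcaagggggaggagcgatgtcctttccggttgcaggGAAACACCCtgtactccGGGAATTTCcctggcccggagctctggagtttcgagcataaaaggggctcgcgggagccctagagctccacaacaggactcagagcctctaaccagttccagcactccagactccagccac
Cxcl2: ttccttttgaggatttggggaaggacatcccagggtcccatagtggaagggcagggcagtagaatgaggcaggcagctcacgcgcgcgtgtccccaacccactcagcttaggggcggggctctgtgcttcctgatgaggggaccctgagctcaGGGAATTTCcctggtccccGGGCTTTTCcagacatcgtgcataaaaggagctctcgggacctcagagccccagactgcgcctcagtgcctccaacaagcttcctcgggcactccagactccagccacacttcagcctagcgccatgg
The 2 matches in each promoter lie close together, and the right-hand match of Cxcl1 and the left-hand match of Cxcl2 read the same letters.

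Growth factors and vasoactive factors were more often higher than lower in CD36-deficient cells. Of 18 tested, 9 were higher and 1 lower, with a median of 1.10; without replicate 1, 13 and 1. Ligands of the EGF receptor family were among them. Hbegf was at 5.10, 5.0 and 6.19 CPM in WT-oxLDL and 20.3, 23.7 and 25.2 CPM in CD36KO-oxLDL, a log2 difference of 2.09 ± 0.14 (SE), adjusted p = 7.83e-06. In control medium its means were 6.83 ± 0.459 CPM in wild-type and 6.98 ± 0.266 CPM in CD36-deficient cells (SD, n = 3). The genotypes did not overlap under oxLDL and the difference in control medium was not called. The change between media was 2.06 ± 0.19 (SE), adjusted p = 0.001. Ereg, epiregulin, was at 0.201, 0.498 and 0.580 CPM in WT-oxLDL and 5.06, 5.05 and 5.47 CPM in CD36KO-oxLDL, a log2 difference of 3.56 ± 0.37 (SE), adjusted p = 0.000135, and also differed in control medium (2.39). Tgfa, transforming growth factor alpha, differed by 1.99 ± 0.29 (SE), adjusted p = 0.000868. Ereg and Tgfa were near the lower end of the measured range in wild-type libraries, and the genotypes did not overlap. Vegfa, the main angiogenic factor, was at 16.8, 23.6 and 18.1 CPM in WT-oxLDL and 47.6, 48.6 and 43.5 CPM in CD36KO-oxLDL. The log2 difference was 1.25 ± 0.18 (SE), adjusted p = 0.000789, with 1.39 ± 0.25 (SE), adjusted p = 0.0265, for the change between media. Adm, the vasodilator adrenomedullin, differed by 2.21 ± 0.41 (SE), adjusted p = 0.00321. The member called lower was Igf1, insulin-like growth factor, at 426, 349 and 344 CPM in WT-oxLDL and 181, 184 and 198 CPM in CD36KO-oxLDL, a log2 difference of -0.99 ± 0.11 (SE), adjusted p = 0.000192.

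Coagulation genes differed in both directions. Tissue factor, F3, starts the extrinsic clotting cascade, and it was at 3.86, 6.19 and 7.85 CPM in WT-oxLDL and 24.2, 29.4 and 32.3 CPM in CD36KO-oxLDL. The log2 difference was 2.26 ± 0.22 (SE), adjusted p = 8.92e-05, 2.02 without replicate 1. In control medium F3 was at 6.80 ± 0.391 CPM in wild-type and 4.86 ± 0.179 CPM in CD36-deficient cells (SD, n = 3), a difference of -0.49 (adjusted p = 0.197); the change was 2.74 ± 0.30 (SE), adjusted p = 0.00216. F7, the protease that binds tissue factor, was at 818, 428 and 418 CPM in WT-oxLDL and 171, 158 and 179 CPM in CD36KO-oxLDL, a log2 difference of -1.71 ± 0.23 (SE), adjusted p = 0.000577. For both genes the genotypes were fully apart, F3 with the CD36-deficient libraries above and F7 with them below. Serpinb2, an inhibitor of plasminogen activators, was at 78.7, 123 and 132 CPM in WT-oxLDL and 199, 231 and 199.6 CPM in CD36KO-oxLDL, a log2 difference of 0.92 ± 0.17 (SE), adjusted p = 0.0034. Of 18 tested, 6 were higher and 2 lower; without replicate 1, 8 and 5. The F3 promoter (chr3:121723287-121723586, GRCm38.p6, plus strand) is shown since F3 had one of the largest changes between media. It held 2 matches to the AP-1 motif TGANTCA, on either strand, in capitals; 7.81% of all promoters held at least 1.
F3: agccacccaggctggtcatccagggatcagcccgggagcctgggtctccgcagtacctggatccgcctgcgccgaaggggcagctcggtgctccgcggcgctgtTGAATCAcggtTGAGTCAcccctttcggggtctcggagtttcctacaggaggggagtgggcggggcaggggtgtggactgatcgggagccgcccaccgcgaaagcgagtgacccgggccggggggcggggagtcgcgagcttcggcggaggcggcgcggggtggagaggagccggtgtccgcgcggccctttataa
The matches stand close together, upstream of the gene's start.

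Several growth, coagulation and chemokine genes are also made by mesothelial cells and fibroblasts, whose markers were higher in CD36-deficient libraries. Of 14 such markers tested, 6 were higher and 0 lower; without replicate 1, 7 and 0. Their summed level was 652, 938 and 954 CPM in WT-oxLDL and 1842, 2194 and 2304 CPM in CD36KO-oxLDL. None of these markers was at 0 in either group. Col1a1, a fibrillar collagen chain, was at 283, 293 and 302 CPM in WT-oxLDL and 848, 827 and 689 CPM in CD36KO-oxLDL, a log2 difference of 1.43 ± 0.21 (SE), adjusted p = 0.00103. Wt1, a mesothelial transcription factor, was at 3.79, 8.11 and 8.32 CPM in WT-oxLDL and 17.5, 16.9 and 15.4 CPM in CD36KO-oxLDL, a log2 difference of 1.29 ± 0.29 (SE), adjusted p = 0.00802, while Msln, the mesothelial surface protein, differed by -0.16 (adjusted p = 0.83). In control medium the summed level was 772, 936 and 1299 CPM and 1939, 2252 and 3363 CPM, and 3 members were called higher. Without CD36KO-oxLDL replicate 1 or replicate 2, 3 markers were higher under oxLDL. In such bulk samples, more cells of a type and more RNA per cell cannot be told apart. The part of these cells in the growth factor, coagulation, chemokine and protease genes was not tested.

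**Figure D4:**
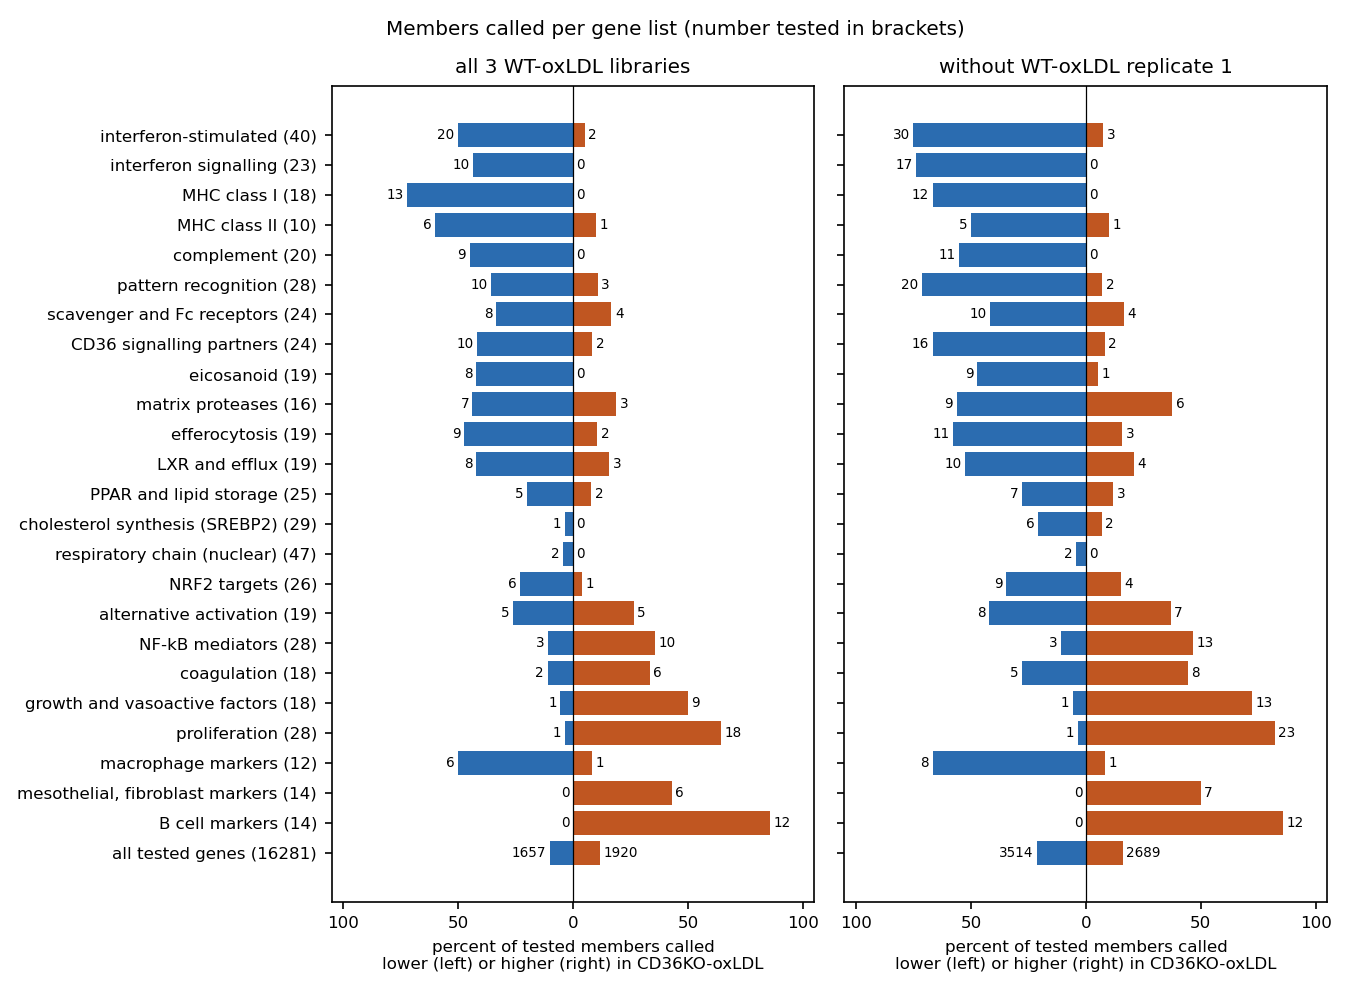
Percent of tested members of 24 gene lists, and of all tested genes, called lower (blue, left) or higher (orange, right) in CD36KO-oxLDL, with the counts beside the bars, in all libraries (left panel) and without WT-oxLDL replicate 1 (right panel, where 16636 genes were tested in all). More members were lower than higher in the interferon, antigen presentation and complement lists, and more were higher than lower among NF-kB mediators, coagulation genes, growth factors, proliferation genes and B cell markers.

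Receptors of complement and of immunoglobulin G were lower. Of 20 complement genes tested, 9 were lower and 0 higher (median -0.49); without replicate 1, 11 and 0. C5ar1, the receptor of the anaphylatoxin C5a, was at 360.1, 324 and 329.6 CPM in WT-oxLDL and 58.0, 57.8 and 58.0 CPM in CD36KO-oxLDL. The 3 CD36-deficient libraries were nearly equal and far below the wild-type ones, a log2 difference of -2.54 ± 0.12 (SE), adjusted p = 8.55e-07, and -2.27 in control medium. C5ar2, the second C5a receptor and its neighbour on chromosome 7, was at 0.906, 2.10 and 1.80 CPM in WT-oxLDL and 0.276, 0.162 and 0.125 CPM in CD36KO-oxLDL, a log2 difference of -3.06 ± 0.36 (SE), adjusted p = 0.000256. C3ar1, the receptor of C3a, was at 748, 899 and 865 CPM in WT-oxLDL and 172, 217 and 225 CPM in CD36KO-oxLDL, 4.09-fold lower (adjusted p = 7.81e-06). Its difference in control medium was -0.57, and the change between media was -1.47 ± 0.18 (SE), adjusted p = 0.00351. C1qc, a chain of the recognition protein C1q, was at 935, 437 and 452 CPM in WT-oxLDL and 166, 198 and 283 CPM in CD36KO-oxLDL, a log2 difference of -1.50 ± 0.28 (SE), adjusted p = 0.00321.

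Fc receptors were lower and other scavenger receptors went both ways. Of 24 tested members of the joint list, 8 were lower and 4 higher; without replicate 1, 10 and 4. Fcgr1, the high-affinity IgG receptor, was at 1150.5, 685 and 688 CPM in WT-oxLDL and 63.7, 89.7 and 141 CPM in CD36KO-oxLDL. Its log2 difference was -3.10 ± 0.29 (SE), adjusted p = 6.59e-05, -2.82 without replicate 1, and the change between media was -2.28 ± 0.38 (SE), adjusted p = 0.0195. Fcgr4 was at 349, 267 and 279 CPM in WT-oxLDL and 46.3, 73.0 and 108 CPM in CD36KO-oxLDL, a log2 difference of -1.98 ± 0.26 (SE), adjusted p = 0.000527. Fcgr2b, the inhibitory receptor, was at 1017, 892 and 895 CPM in WT-oxLDL and 475, 498 and 497 CPM in CD36KO-oxLDL, a log2 difference of -0.93 ± 0.11 (SE), adjusted p = 0.000343, and Fcgr3 differed by -0.93. Fcgr1 and Fcgr4 are known as interferon-inducible genes. In these Fc receptors the wild-type libraries lay above all CD36-deficient ones. Msr1, scavenger receptor A, was at 975, 1660.2 and 1684 CPM in WT-oxLDL and 891, 961 and 943 CPM in CD36KO-oxLDL, a log2 difference of -0.63 ± 0.18 (SE), adjusted p = 0.0244. Olr1, the lectin-like oxLDL receptor, was at 44.8, 104 and 118 CPM in WT-oxLDL and 167, 191 and 146 CPM in CD36KO-oxLDL, a log2 difference of 0.91 ± 0.28 (SE), adjusted p = 0.037, and WT-oxLDL replicate 1 was its lowest library. Marco was at 366, 322 and 340.1 CPM in WT-oxLDL and 308, 275 and 360.3 CPM in CD36KO-oxLDL; the genotypes overlapped and it was not called (adjusted p = 0.556). Colec12, a collectin scavenger receptor of vessel and stromal cells, was at 9.90, 16.7 and 16.7 CPM in WT-oxLDL and 34.8, 35.8 and 32.2 CPM in CD36KO-oxLDL, a log2 difference of 1.24 ± 0.18 (SE), adjusted p = 0.000935.

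Pattern recognition genes were more often called lower than higher, while the largest difference was on the higher side. Of 28 tested, 10 were lower and 3 higher; without replicate 1, 20 and 2. Nlrp1b, an inflammasome sensor, was at 0.336, 0.711 and 0.663 CPM in WT-oxLDL and 9.24, 11 and 9.63 CPM in CD36KO-oxLDL. The log2 difference was 4.08 ± 0.22 (SE), adjusted p = 1.83e-06. In control medium the means were 10.3 ± 0.928 and 14.9 ± 0.440 CPM (SD, n = 3), above the WT-oxLDL libraries in both genotypes; the change between media was 3.55 ± 0.28 (SE), adjusted p = 0.000618. Nlrp1b has close paralogues that can share its reads. Casp1, the inflammasome protease, was at 501, 358 and 383 CPM in WT-oxLDL and 162, 180.1 and 254 CPM in CD36KO-oxLDL, a log2 difference of -1.06 ± 0.18 (SE), adjusted p = 0.00199, and its adaptor Pycard differed by -1.21. Tlr1 was at 199, 216 and 219 CPM in WT-oxLDL and 111, 109 and 106 CPM in CD36KO-oxLDL, a log2 difference of -0.96 ± 0.09 (SE), adjusted p = 0.0001. Myd88, the adaptor of most Toll-like receptors, was at 204, 184 and 202 CPM in WT-oxLDL and 101, 108 and 132 CPM in CD36KO-oxLDL, a log2 difference of -0.79 ± 0.12 (SE), adjusted p = 0.00101. In these 3 genes the genotypes did not overlap. Without CD36KO-oxLDL replicate 1, 6 members were lower. Tlr4, a signalling partner of CD36, differed by -0.27 (adjusted p = 0.564) and Tlr6, the other, by -0.47 (adjusted p = 0.0163).

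Signalling partners of CD36, among them kinases and adaptors, were more often called lower than higher. Of 24 tested, 10 were lower and 2 higher, with a median of -0.28; without replicate 1, 16 and 2. Lyn, the Src family kinase bound by CD36, was at 488, 455 and 489 CPM in WT-oxLDL and 225, 243 and 243 CPM in CD36KO-oxLDL. The difference was -1.01 ± 0.09 (SE), adjusted p = 5.77e-05, and the change from control medium was -0.83 ± 0.13 (SE), adjusted p = 0.0134. Fgr, a related kinase, was at 292, 245 and 239 CPM in WT-oxLDL and 146, 150.1 and 145 CPM in CD36KO-oxLDL, a log2 difference of -0.81 ± 0.10 (SE), adjusted p = 0.000491. Vav1, a guanine nucleotide exchange factor that is phosphorylated by such kinases, was at 355, 357 and 367 CPM in WT-oxLDL and 213, 217 and 239 CPM in CD36KO-oxLDL, a log2 difference of -0.69 ± 0.10 (SE), adjusted p = 0.000701. In all 3 the genotypes did not overlap. The members called higher were the kinase Yes1 (1.39) and the tetraspanin Cd81 (0.69). With upper-quartile factors 5 members were lower and 3 higher, and without CD36KO-oxLDL replicate 1 or replicate 2, 4 and 6 were lower.

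LXR targets and cholesterol efflux genes were more often called lower than higher, apolipoproteins among the lower ones. Of 19 LXR targets and cholesterol efflux genes tested, 8 were lower and 3 higher; without replicate 1, 10 and 4. Lpl, lipoprotein lipase, was at 4485, 6622 and 7115 CPM in WT-oxLDL and 3132, 3078 and 3242 CPM in CD36KO-oxLDL, a log2 difference of -0.95 ± 0.16 (SE), adjusted p = 0.00186. Nr1h3, the LXR alpha receptor, was at 319, 150.4 and 151 CPM in WT-oxLDL and 83.0, 82.3 and 95.1 CPM in CD36KO-oxLDL, a log2 difference of -1.25 ± 0.24 (SE), adjusted p = 0.00421, and -0.81 without replicate 1. Replicate 1 was the highest wild-type library for Nr1h3 and the lowest for Lpl. Abca1, the main cholesterol exporter, was at 182, 1026 and 1114 CPM in WT-oxLDL and 597, 747 and 462 CPM in CD36KO-oxLDL. WT-oxLDL replicate 1 was far below all other oxLDL libraries, and the difference was -0.36 (adjusted p = 0.619) with it and -0.85 (adjusted p = 0.000706) without it. Arl4c, an LXR-responsive small GTPase, was at 12.3, 13.7 and 13.4 CPM in WT-oxLDL and 21.9, 26.0 and 26.8 CPM in CD36KO-oxLDL, a log2 difference of 0.92 ± 0.12 (SE), adjusted p = 0.000525.

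Of 25 genes of PPAR signalling and lipid storage, 5 were lower and 2 higher, 28.0% in all, beside 22.0% of all tested genes. Without replicate 1, 7 were lower and 3 higher, beside 37.3% of all tested genes called. Plin2, the coat protein of lipid droplets, was at 1862, 1302 and 1255 CPM in WT-oxLDL and 575, 621 and 743 CPM in CD36KO-oxLDL, a log2 difference of -1.19 ± 0.16 (SE), adjusted p = 0.00059. Lipe, hormone-sensitive lipase, was at 42.8, 28.7 and 31.3 CPM in WT-oxLDL and 13.6, 17.4 and 17.3 CPM in CD36KO-oxLDL, a log2 difference of -1.09 ± 0.16 (SE), adjusted p = 0.001. Mgll, monoglyceride lipase, was at 41.4, 30.3 and 27.8 CPM in WT-oxLDL and 94.2, 98.5 and 90.4 CPM in CD36KO-oxLDL, a log2 difference of 1.51 ± 0.15 (SE), adjusted p = 8.77e-05. Plin2 and Lipe were lower and Mgll higher in every CD36-deficient library than in any wild-type one. Angptl4, an inhibitor of lipoprotein lipase, was at 6.18, 3.36 and 4.50 CPM in WT-oxLDL and 12.4, 12.3 and 12.3 CPM in CD36KO-oxLDL, a log2 difference of 1.41 ± 0.19 (SE), adjusted p = 0.00058; it was not called in control medium (-0.25), and the change was 1.65 ± 0.27 (SE), adjusted p = 0.0172. Of 20 genes of mitochondrial fatty acid oxidation, 6 were lower and 0 higher, with and without replicate 1, against 3 lower with upper-quartile factors and 3 without CD36KO-oxLDL replicate 1 or replicate 2. Cpt1a, the carnitine transferase that admits fatty acids to the mitochondrion, was at 113, 164 and 170.2 CPM in WT-oxLDL and 81.3, 101 and 86.1 CPM in CD36KO-oxLDL, a log2 difference of -0.74 ± 0.15 (SE), adjusted p = 0.00551. Acadl, a long-chain acyl-CoA dehydrogenase, was at 100.1, 113 and 122 CPM in WT-oxLDL and 57.9, 61.8 and 75.2 CPM in CD36KO-oxLDL, a log2 difference of -0.78 ± 0.13 (SE), adjusted p = 0.00157. In both genes the wild-type libraries lay above the CD36-deficient ones. Of 29 genes of cholesterol synthesis and uptake, 1 was lower and 0 higher, with a median of -0.03, against 6 and 2 without replicate 1. The called member was Npc2, which exports cholesterol from lysosomes, at 3676, 2154 and 2231 CPM in WT-oxLDL and 1255, 1383 and 1998 CPM in CD36KO-oxLDL (adjusted p = 0.0227). With upper-quartile factors this list had 3 members higher and 0 lower.

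Proliferation genes were mostly higher in CD36-deficient cells. Of 28 tested, 18 were higher and 1 lower, with a median of 0.76; without replicate 1, 23 and 1. Their summed level was 496, 519.6 and 539 CPM in WT-oxLDL and 689, 698 and 716 CPM in CD36KO-oxLDL. In control medium the sums were 832, 839 and 884 CPM and 752, 872 and 1029 CPM and overlapped. There 3 members were called higher and 1 lower, with a median difference of 0.34. No member of the list passed the interaction test. Rrm2, a ribonucleotide reductase subunit, was at 4.80, 6.15 and 7.24 CPM in WT-oxLDL and 18.2, 16.4 and 14.7 CPM in CD36KO-oxLDL, a log2 difference of 1.44 ± 0.19 (SE), adjusted p = 0.000634. Ccnb1, the mitotic cyclin, was at 4.13, 5.26 and 5.72 CPM in WT-oxLDL and 11.9, 12.2 and 11 CPM in CD36KO-oxLDL, a log2 difference of 1.21 ± 0.17 (SE), adjusted p = 0.000868. Ccnd1, cyclin D1, was at 11.7, 16.3 and 15.3 CPM in WT-oxLDL and 33.5, 33.2 and 30.5 CPM in CD36KO-oxLDL, a log2 difference of 1.16 ± 0.18 (SE), adjusted p = 0.00108. For these genes every CD36-deficient library lay above every wild-type one. The member called lower was Pcna (-0.50). The mesothelial and fibroblast markers were higher in the same libraries, and their part in this group was not tested. Hmga2, a chromatin protein of growing cells, was at 2.28, 3.18 and 2.71 CPM in WT-oxLDL and 16.0, 16.9 and 15.3 CPM in CD36KO-oxLDL, a log2 difference of 2.55 ± 0.17 (SE), adjusted p = 7.83e-06.

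**Figure D5:**
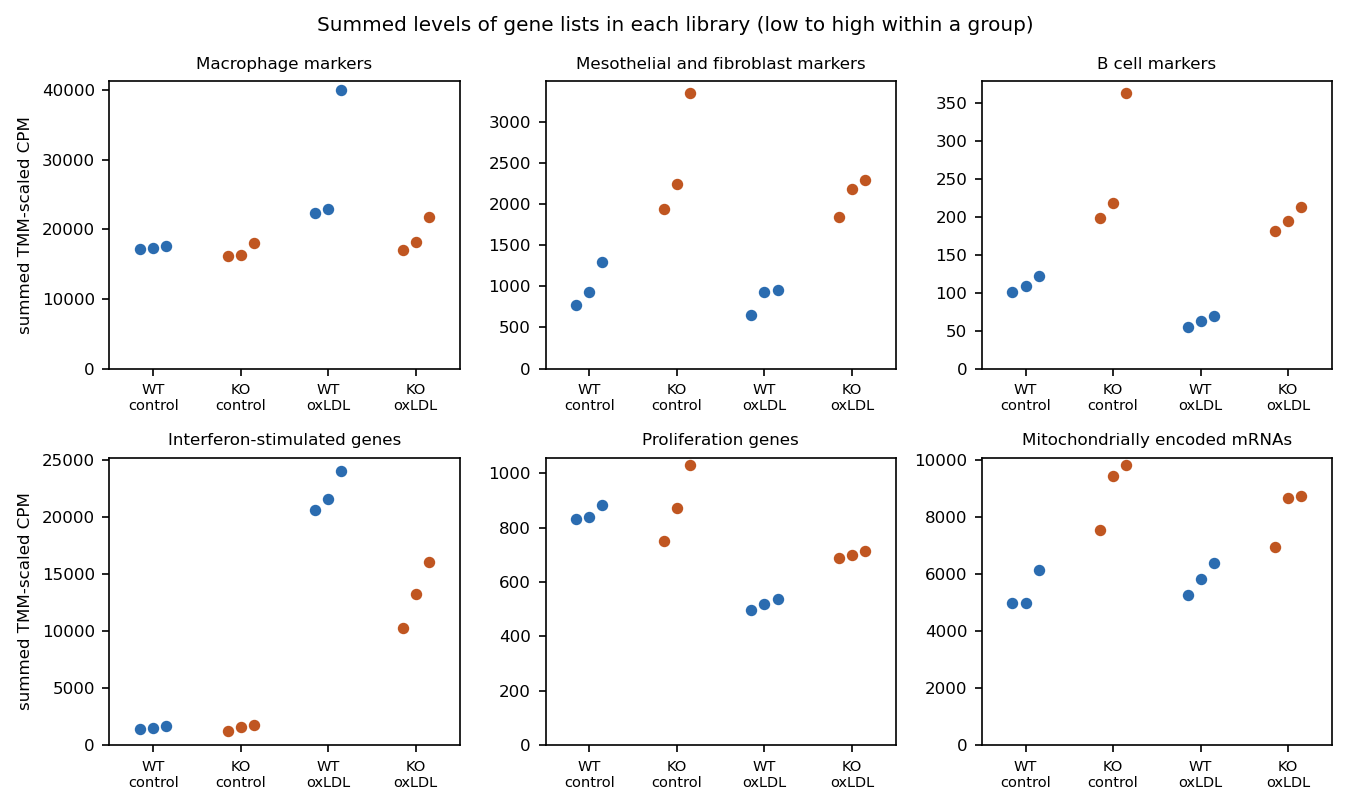
Summed TMM-scaled CPM of 6 gene lists in each library, ordered from low to high within a group; blue is wild-type and orange CD36-deficient. The proliferation sums are 496, 519.6 and 539 CPM in WT-oxLDL, below all CD36KO-oxLDL libraries, and the mesothelial and B cell sums are higher in CD36-deficient libraries in both media.

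The respiratory chain is built from mitochondrially encoded and nuclear subunits. Of 13 mitochondrial mRNAs, 3 were called higher and 0 lower, and all 13 were higher without replicate 1. Their sums were 5268, 5819 and 6391 CPM in WT-oxLDL and 6926, 8657 and 8736 CPM in CD36KO-oxLDL, with a median difference of 0.46 with all libraries and 0.72 without replicate 1. mt-Co1, a subunit of cytochrome oxidase, was at 2402, 2991 and 2822 CPM in WT-oxLDL and 3226, 4206 and 4406 CPM in CD36KO-oxLDL, a log2 difference of 0.53 ± 0.16 (SE), adjusted p = 0.0367. In the fit to the oxLDL libraries alone, and without CD36KO-oxLDL replicate 2, 0 of them were called. In control medium 9 members were called higher. Of 47 nuclear respiratory chain genes, 2 were lower and 0 higher with and without replicate 1, a smaller share than the 10.2% of all tested genes called lower, and their median was -0.48 with it and -0.09 without it. Of 12 mitochondrial antioxidant and uncoupling genes, Nnt was higher and Sod2 lower, against 1 higher and 2 lower without replicate 1. Nnt, the transhydrogenase that supplies mitochondrial NADPH, was at 12.4, 15.3 and 15 CPM in WT-oxLDL and 24.2, 25.9 and 24.4 CPM in CD36KO-oxLDL, a log2 difference of 0.80 ± 0.11 (SE), adjusted p = 0.000766, and differed by 0.73 in control medium. Sod2, the mitochondrial superoxide dismutase, was at 1799.8, 1539 and 1628 CPM in WT-oxLDL and 929, 957 and 1174 CPM in CD36KO-oxLDL, a log2 difference of -0.70 ± 0.12 (SE), adjusted p = 0.00257.

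Among stress genes, Hmox1, heme oxygenase and a target of NRF2, was at 3114, 2600.0 and 2688 CPM in WT-oxLDL and 1446, 1471 and 1563 CPM in CD36KO-oxLDL, a log2 difference of -0.91 ± 0.11 (SE), adjusted p = 0.000356. Of 26 NRF2 targets, 6 were lower and 1 higher, 26.9% in all, beside 22.0% of all tested genes. Without replicate 1, 9 were lower and 4 higher, beside 37.3% of all tested genes called. With upper-quartile factors 2 were lower and 2 higher. The cystine transporter Slc7a11 was at 178, 437 and 517 CPM in WT-oxLDL and 631, 641 and 479 CPM in CD36KO-oxLDL (adjusted p = 0.151), with WT-oxLDL replicate 1 the lowest library and the genotypes overlapping. Of 13 heat shock genes, 5 were lower and 0 higher, against 5 and 2 without replicate 1. Hspa8, the constitutive chaperone, was at 2636, 2697 and 3048 CPM in WT-oxLDL and 1359, 1382 and 1836 CPM in CD36KO-oxLDL, a log2 difference of -0.87 ± 0.13 (SE), adjusted p = 0.00115. Hspa1a and Hspa1b, near-identical inducible chaperones, differed by -1.39 and -1.08, and their shared reads make the split between them uncertain. Of 24 genes of the integrated stress and unfolded protein response, 3 were higher and 1 lower, 16.7% in all. Without replicate 1, 7 were higher and 3 lower. Slc7a5, an amino acid transporter, was at 14.6, 18.7 and 17.0 CPM in WT-oxLDL and 34.9, 33.6 and 31.6 CPM in CD36KO-oxLDL, a log2 difference of 0.99 ± 0.15 (SE), adjusted p = 0.00106. Of 10 NADPH oxidase and related genes, 5 were lower and 1 higher, and 6 and 1 without replicate 1. Ncf1, the p47phox subunit, was at 358, 290.0 and 328 CPM in WT-oxLDL and 184, 212 and 215 CPM in CD36KO-oxLDL, a log2 difference of -0.67 ± 0.12 (SE), adjusted p = 0.00226.

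Genes of alternative activation split. Of 19 tested, 5 were higher and 5 lower; without replicate 1, 7 and 8. Arg1, the arginase that competes with nitric oxide synthase for arginine, was at 303, 225 and 194 CPM in WT-oxLDL and 52.7, 67.4 and 72.3 CPM in CD36KO-oxLDL. The difference was -1.91 ± 0.17 (SE), adjusted p = 6.06e-05; in control medium the means were 98.1 ± 5.82 and 103 ± 7.36 CPM (SD, n = 3), and the difference was not called; the change was -1.97 ± 0.24 (SE), adjusted p = 0.00359. Clec10a, a galactose-binding lectin of alternatively activated cells, was at 2.62, 1.39 and 1.77 CPM in WT-oxLDL and 0.276, 0.324 and 0.349 CPM in CD36KO-oxLDL, a log2 difference of -2.58 ± 0.27 (SE), adjusted p = 0.000126. In all 3 CD36-deficient libraries Arg1 and Clec10a were below every wild-type library. Chil3, a chitinase-like protein, was at 8.29, 7.31 and 7.54 CPM in WT-oxLDL and 2.92, 4.0 and 4.44 CPM in CD36KO-oxLDL, a log2 difference of -1.03 ± 0.16 (SE), adjusted p = 0.00126. Irf4, a transcription factor of interleukin-4 responses, was at 0.806, 1.3 and 1.77 CPM in WT-oxLDL and 4.22, 4.24 and 4.09 CPM in CD36KO-oxLDL, a log2 difference of 1.68 ± 0.22 (SE), adjusted p = 0.000479. Of 10 genes of arginine metabolism Arg1 was called with all libraries, and 3 were called lower without replicate 1. Nos2, inducible nitric oxide synthase, was at 327, 243 and 282 CPM in WT-oxLDL and 50.9, 122 and 185 CPM in CD36KO-oxLDL, and although the genotypes did not overlap it was not called (adjusted p = 0.129).

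Secreted proteases and genes of lipid mediators differed as well. Of 16 matrix proteases and their inhibitors, 7 were lower and 3 higher, and without replicate 1 the counts were 9 and 6. In control medium 5 were called lower and 6 higher, beside 2.52% and 8.92% of all tested genes there. No member passed the interaction test. Mmp9, gelatinase B, was at 231, 222 and 239 CPM in WT-oxLDL and 104.9, 101 and 85.2 CPM in CD36KO-oxLDL, a log2 difference of -1.25 ± 0.13 (SE), adjusted p = 0.000118. Mmp8, neutrophil collagenase, was at 16.4, 22.1 and 22.7 CPM in WT-oxLDL and 6.95, 7.29 and 6.39 CPM in CD36KO-oxLDL, a log2 difference of -1.57 ± 0.14 (SE), adjusted p = 4.7e-05. Mmp3, stromelysin, went the other way, at 1.34, 1.3 and 2.15 CPM in WT-oxLDL and 11, 11 and 11.5 CPM in CD36KO-oxLDL, a log2 difference of 2.81 ± 0.25 (SE), adjusted p = 4.37e-05. The genotypes overlapped in none of these proteases. Of 19 eicosanoid genes, 8 were lower and 0 higher; without replicate 1, 9 and 1. Tbxas1, thromboxane synthase, was at 199, 123 and 117 CPM in WT-oxLDL and 79.1, 78.0 and 79.9 CPM in CD36KO-oxLDL, a log2 difference of -0.89 ± 0.17 (SE), adjusted p = 0.00426. Ptgir, the prostacyclin receptor, was at 55.6, 51.6 and 53.6 CPM in WT-oxLDL and 35.1, 38.5 and 33.3 CPM in CD36KO-oxLDL, a log2 difference of -0.59 ± 0.11 (SE), adjusted p = 0.00282, and was lower by more in control medium (-1.57). Of 19 genes for clearing dead cells, 9 were lower and 2 higher; without replicate 1, 11 and 3. Axl, a receptor for phosphatidylserine bridges, was at 247, 316 and 353 CPM in WT-oxLDL and 157, 182 and 169 CPM in CD36KO-oxLDL, a log2 difference of -0.85 ± 0.15 (SE), adjusted p = 0.00292. Itgb3, the beta chain of the vitronectin receptor, was at 5.74, 8.87 and 9.20 CPM in WT-oxLDL and 46.5, 45.1 and 38.9 CPM in CD36KO-oxLDL, a log2 difference of 2.45 ± 0.18 (SE), adjusted p = 1.11e-05.

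The other lists can be given by their counts, as higher and lower members with all libraries and then without replicate 1. Of all tested genes, 11.8% were higher and 10.2% lower with all libraries, and 16.2% and 21.1% without replicate 1. With all libraries the called shares of the glycolysis, lysosome and citric acid cycle lists were 20.8%, 17.2% and 9.09%. These are below the 22.0% of all tested genes. Costimulation and checkpoint genes were called in 2 and 6 of 13, and 2 and 7 without it; Cd86 was at 71.0, 54.0 and 60.01 CPM in WT-oxLDL and 19.8, 26.2 and 38.5 CPM in CD36KO-oxLDL, a log2 difference of -1.13 ± 0.22 (SE), adjusted p = 0.00394. Immediate-early genes were called in 5 and 3 of 23, and 9 and 4. Among them Fos, a component of AP-1, was at 33.1, 46.5 and 38.6 CPM in WT-oxLDL and 17.5, 18.4 and 16.1 CPM in CD36KO-oxLDL, a log2 difference of -1.19 ± 0.14 (SE), adjusted p = 0.000234, and the phosphatase Dusp1 differed by -1.05. Glycolysis and HIF1 targets were called in 3 and 2 of 24, and 9 and 6. Citric acid cycle genes were called in 1 and 1 of 22, and 3 and 3. Lysosome and autophagy genes were called in 1 and 4 of 29, and 1 and 11. Iron and metal genes were called in 2 and 5 of 16, and 2 and 9; Lcn2, which binds bacterial siderophores, was at 523, 254 and 279.6 CPM in WT-oxLDL and 111, 139 and 167 CPM in CD36KO-oxLDL, a log2 difference of -1.34 ± 0.25 (SE), adjusted p = 0.00313. Adhesion genes were called in 0 and 5 of 15, and 0 and 9. Cd47, a signal against phagocytosis, differed by -1.09. Genes of large peritoneal macrophages were called in 4 and 6 of 25, and 6 and 8. Those of small peritoneal macrophages were called in 2 and 4 of 10, and 2 and 6. Of 4 sex-linked genes tested, 0 were called with all libraries, and without replicate 1 2, Eif2s3y and Uty, were called lower.

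Markers of macrophages and of other peritoneal cells differed between the genotypes. Macrophage markers were present in every library and summed to 22318, 22908 and 40045 CPM in WT-oxLDL and 17068, 18200.3 and 21786 CPM in CD36KO-oxLDL, and replicate 1 was the highest of WT-oxLDL. Of 12 tested, 6 were lower and 1 higher; without replicate 1, 8 and 1. Emr1, which encodes F4/80, was at 1391, 1546 and 1752 CPM in WT-oxLDL and 880.3, 969 and 835 CPM in CD36KO-oxLDL, a log2 difference of -0.80 ± 0.11 (SE), adjusted p = 0.000705. Csf1r, the receptor of the macrophage growth factor, was at 1490.0, 1306 and 1340.2 CPM in WT-oxLDL and 925, 956 and 839 CPM in CD36KO-oxLDL, a log2 difference of -0.60 ± 0.10 (SE), adjusted p = 0.0018. In control medium the macrophage sums were 17161, 17339 and 17539 CPM and 16168, 16308 and 17964 CPM and overlapped. The part of these levels in the complement, Fc receptor, interferon and kinase genes that were lower in the same libraries was not tested.

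B cell markers were higher in CD36-deficient libraries in both media. Of 14 tested, 12 were higher and 0 lower with and without replicate 1, and 11 were higher in control medium. The marker sums were 54.2, 63.1 and 69.8 CPM in WT-oxLDL and 181, 195 and 213 CPM in CD36KO-oxLDL, small beside the macrophage sums. Ighm, the constant region of immunoglobulin M, was at 20.3, 12.6 and 20.6 CPM in WT-oxLDL and 128, 109.6 and 141 CPM in CD36KO-oxLDL, a log2 difference of 2.82 ± 0.44 (SE), adjusted p = 0.00137. Of 90 tested immunoglobulin segments and constant regions, 73 were higher and 0 lower, with and without replicate 1. Their sums were 56.3, 34.1 and 50.5 CPM in WT-oxLDL and 304.7, 247.1 and 313.4 CPM in CD36KO-oxLDL. Among them Ighg1, an immunoglobulin G constant region, was at 0.0336, 0 and 0 CPM in WT-oxLDL and 3.19, 2.27 and 1.80 CPM in CD36KO-oxLDL, and Ighg3, another, was at 0, 0.0533 and 0.138 CPM in WT-oxLDL and 10.1, 3.16 and 6.89 CPM in CD36KO-oxLDL. Immunoglobulin segments resemble each other and can share reads.

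Markers of the remaining cell types differed in both directions. T and NK cell markers had 6 tested members, of which 1 was higher and 0 lower with and without replicate 1, with sums of 5.48, 6.38 and 10.7 CPM and 6.17, 6.97 and 8.56 CPM. Neutrophil markers were called lower in 3 and higher in 0 of 8, against 3 and 1 without replicate 1, with sums of 290.2, 309 and 352 CPM and 155, 158 and 168 CPM. Csf3r, which macrophages also express, was at 275, 259 and 237 CPM in WT-oxLDL and 133, 146 and 123 CPM in CD36KO-oxLDL. Mast cell and basophil markers were higher in 3 of 8 and lower in 1, the latter being Hdc, at 14.4, 13.3 and 13.7 CPM in WT-oxLDL and 2.70, 3.46 and 4.49 CPM in CD36KO-oxLDL. Without replicate 1 the counts were 5 higher and 1 lower. The sums of this list were 16.0, 17.7 and 20.5 CPM in WT-oxLDL and 11.6, 14.9 and 15.5 CPM in CD36KO-oxLDL. The mast cell protease Cpa3 was at 1.01, 0.427 and 0.580 CPM in WT-oxLDL and 1.44, 1.92 and 2.05 CPM in CD36KO-oxLDL. Eosinophil markers were higher in 2 and lower in 1 of 3 with and without replicate 1, and Epx had 0 counts in all 6 libraries. The eosinophil sums overlapped, at 4.13, 4.27 and 4.48 CPM in WT-oxLDL and 3.92, 4.17 and 4.51 CPM in CD36KO-oxLDL. Dendritic cell markers were higher in 2 and lower in 1 of 6, against 3 and 1 without replicate 1. Their sums were 480.1, 550.3 and 929 CPM in WT-oxLDL and 221, 246 and 429.9 CPM in CD36KO-oxLDL, and most of each sum was Bst2, the member called lower, which is also in the interferon-stimulated list, at 919, 474 and 544 CPM in WT-oxLDL and 211, 236 and 419.5 CPM in CD36KO-oxLDL. Of 2 tested erythroid and platelet markers, 0 were called with all libraries and 1, Itga2b, was higher without replicate 1.

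Genes near the targeted locus were counted apart. Within 5 Mb of Cd36 on chromosome 5, 10 of 29 tested genes were called (34.5%), 7 higher and 3 lower. Within 10 Mb the count was 24 of 83 (28.9%) and within 20 Mb 63 of 217 (29.0%), beside 22.0% of all tested genes. Called neighbours with a log2 difference beyond 1 in size included Sema3a (1.70) and Sema3e (2.06), which encode semaphorin guidance proteins, Gnai1 (2.02), a G protein subunit, and Fgl2 (-1.41), a fibrinogen-like protein. Sema3e was not called without replicate 1 (adjusted p = 0.0752). Around Apoe, chosen after its values were seen, 33 of 102 genes within 5 Mb were called (32.4%), 12 higher and 21 lower, C5ar1, C5ar2 and Apoc2 among them. The share was 27.8% within 10 Mb, and 97 of 422 genes were called within 20 Mb. Without replicate 1 the shares within 5 Mb were 12 of 29 (41.4%) around Cd36 and 50 of 102 (49.0%) around Apoe, beside 37.3% of all tested genes. Within 10 and 20 Mb they were 36.1% and 38.2% around Cd36, and 42.6% and 36.7% around Apoe. No test was made of these shares.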

How the data were processed

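RNA-seq libraries of mouse peritoneal macrophages, 3 in each of 4 groups, were grouped by their titles. The authors deposited whole-number read counts per gene for each library, with no normalization per the file headers, together with their own table of log2 fold changes and false discovery rates (adjusted p-values) for this comparison. The submitters' processing notes name mm10 and FastQC. For the aligner, counter, annotation and strand setting the sources used here give nothing, so counts of overlapping, antisense and near-identical genes are uncertain. Gene positions came from GENCODE M21, in which 98.0% of gene identifiers were found, and promoters from RefSeq (GRCm38.p6).

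All 12 libraries entered 1 edgeR quasi-likelihood fit (edgeR 4.0.16, R 4.3.3) with a mean for each group and TMM factors. filterByExpr kept genes with a minimum count of 10 and a minimum total count of 15. Genes at a Benjamini-Hochberg adjusted p-value under 0.05 over all tested genes were called. The SE was the absolute log2 difference divided by the square root of the test's F. The procedure was also run on simulated data with the same spread for every gene and no outlying library. That run does not bear on the effect of WT-oxLDL replicate 1, and its outcome is not given here. Levels are CPM on TMM-scaled library sizes. The floor of 3 counts covers counting error only, while the SE, taken from the test's F, also holds the spread among libraries. The labels report no molecular identifiers.

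Named genes were Cd36, the 12 largest differences and the 6 smallest p in each direction among called genes whose groups did not overlap, with a mean of at least 1 CPM in a group and a gene symbol of the usual kind, up to 4 members with the smallest p of each of 47 lists, and Apoe, Arg1, F3, Hbegf, Nlrp1b, Ifi44 and Ifi44l. Some genes that these rules name are not reported here. Further genes were chosen after their values were seen: the list members Isg15, Oas1a, Oas3, Irf7, Isg20, Xaf1, Il1a, Cxcl3, Ccl22, Il23a, Csf2, Csf3, Ccl5, Cd40, Il10, Tnf, Il1b, Tgfa, Adm, Msln, Fcgr3, Msr1, Olr1, Marco, Pycard, Tlr4, Tlr6, Yes1, Cd81, Lpl, Nr1h3, Abca1, Pcna and Slc7a11, and the neighbours of Cd36. The comparison, its lists and its tests were chosen with earlier results of these data known. Alternatives were RLE and upper-quartile factors, no low-count filter, DESeq2 1.42.0, limma 3.58.1 voom, the 6 oxLDL libraries alone, the replicate number as a block, removal of each library's length trend, and each library left out in turn.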

Additional observations from a re-analysis of the deposited data

Results flagged for a closer look

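The genotype difference changed between media, by the interaction term of the edgeR fit at a Benjamini-Hochberg adjusted p under 0.05, for 22 of the named genes. Interaction calls depended on the processing. Over all tested genes they numbered 113, against 45 with the replicate block and 42 to 1154 with a library left out. Which of the 22 keep this call under the alternatives is not given here. Each value below is the log2 difference between CD36-deficient and wild-type libraries under oxLDL minus that in control medium, so a positive value means a difference shifted upwards by oxLDL. Shifted upwards were Nlrp1b (3.55), F3 (2.74), Hbegf (2.06), the growth-associated Hmga2 (1.97), the transcription factor Irf4 (1.75), the lipase inhibitor Angptl4 (1.65), Vegfa (1.39), the integrin chain Itgb3 (1.3), the chemokine Cxcl2 (1.05) and the prostacyclin receptor Ptgir (0.98). Shifted downwards were the endothelial lipase Lipg (-2.67), Fcgr1 (-2.28), the transporter Slc13a3 (-2.08), Arg1 (-1.97), the heat shock genes Hspa1b (-1.70) and Hspa1a (-1.60), Dppa3 (-1.57), C3ar1 (-1.47), Axl (-1.24), Dusp1 (-0.96), the lectin Clec4a3 (-0.94) and Lyn (-0.83).

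Of the 10 upward shifts, that of Ptgir brought a negative difference nearer to 0 (-1.57 in control medium), and Itgb3 and Hmga2 were also called higher in control medium (1.15 and 0.58). Among the downward shifts, Dppa3, Clec4a3 and C3ar1 were also called lower in control medium (-1.65, -0.73 and -0.57). Clec4a3, a macrophage lectin, was at 91.0, 74.0 and 74.7 CPM in WT-oxLDL and 24.6, 23.6 and 26.8 CPM in CD36KO-oxLDL, a log2 difference of -1.68 ± 0.12 (SE), adjusted p = 1.18e-05. Lipg was at 9.20, 14.8 and 12.9 CPM in WT-oxLDL and 1.18, 1.38 and 1.77 CPM in CD36KO-oxLDL, and its difference in control medium was -0.43 (adjusted p = 0.385). In both genes the genotypes did not overlap under oxLDL, which for Lipg was required by the rule that named it.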

How the results depend on the processing

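Cd36 kept its direction and its call under all 20 alternatives, and 110 of the 172 called named genes did so. The number of genes called was within 1.5 times of 3577 with RLE factors, upper-quartile factors, DESeq2, voom, no low-count filter, the length trend removed and the replicate block. In the oxLDL libraries alone it was 1259, 905 higher and 354 lower. Genes called lower numbered 1007 with upper-quartile factors and 3029 with the length trend removed, and the cause was not tested. Leaving out 1 library at a time gave 2131 to 6203 calls, 1279 to 2689 higher and 852 to 3514 lower, the extremes being CD36KO-oxLDL replicate 1 and WT-oxLDL replicate 1. For control medium the range was 893 to 4864, and for the interaction 42 to 1154, both highest without WT-oxLDL replicate 1, which was among the samples that set the common spread. The interaction gave 535 calls with DESeq2 and 232 with the length trend removed. Without WT-oxLDL replicate 1 and with the remaining oxLDL libraries alone, an alternative added after seeing the data, 3961 genes were called.

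Correlations between same-numbered libraries ran from -0.399 to 0.357, and 2 of 18 exceeded 0.1. With 3 libraries a group they cannot show whether libraries of the same number share an animal or a batch. With the replicate block 3041 genes were called (1709 higher, 1332 lower) and 45 in the interaction. Uncalled sex-linked genes changed sign. Kdm5d (0.25) was at -0.152 with the length trend removed and between -0.0483 and 0.427 with a library left out. Ddx3y (0.18) lay between -0.290 and 0.480 with a library left out. Uty (-0.05) was at 0.0935 with upper-quartile factors, 0.265 with voom and 0.0302 with the replicate block, and between -0.523 and 0.295 with a library left out. Among the values with a library left out, the lowest of each gene was the one without WT-oxLDL replicate 1.

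Genes below about 1 CPM, such as Il23a and Csf2, rest on few counts, and 3 libraries a group limit the precision of each value.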
